A study of Eutrema salsugineum with 41 samples.

Results

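The flanks of long H3K9me2 domains are the stretches of *Eutrema salsugineum* chromatin that lie directly outside an unbroken block of dimethylated histone H3 lysine 9 and are not enriched themselves. They were chosen by the wild-type H3K9me2 and input reads, so the wild-type values below are in part set by the choice. Reads were assigned by their midpoint to windows of 1000 bp on the 24 scaffolds of at least 1 Mb, which hold 236189 windows. A window was called enriched with at least 10 wild-type H3K9me2 reads and at least 4-fold more reads than input, each scaled to its own library size. At least 5 touching enriched windows made a domain, and windows within 3 kb outside a domain that were not enriched are the flanks. The rule gave 742 domains with 5017 windows and 3686 flank windows, 1.56% of all windows.

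The series comprises 41 samples, and 6 ChIP-seq libraries from leaf of the Shandong ecotype were used here. They are H3K9me2 and input DNA from wild type, and H3K9me2 from AtCMT3-L1T3 and AtCMT3-L1T5, then AtCMT3-L2T3 and AtCMT3-L2T5. These 4 plants carry genomic *A. thaliana CMT3* (*AtCMT3*) with its own promoter, introduced by floral dip and selected with Basta, and they come from transformed lineages L1 and L2, propagated by single seed descent and sampled in generations T3 and T5. Each library came from cauline leaves of 1 plant, so plants could not be compared against replicate error, and no test is given. No AtCMT3 plant has an input library among the files, and the wild-type input served all of them. In RNA-seq of the same lines, *AtCMT3* was highest in AtCMT3-L2T3, at 159 TPM (transcripts per 1000000), and AtCMT3-L2T5 had 62.7 TPM. AtCMT3-L1T5 had 97.8 TPM, AtCMT3-L1T3 had 77.2 TPM and wild type had 0.225 TPM. The values of AtCMT3-L1T3, AtCMT3-L2T3 and wild type were scaled from the deposited FPKM, and the order of AtCMT3-L1T3 and AtCMT3-L2T5 rests on that scaling, since the deposited value of AtCMT3-L1T3 was 53.5 FPKM.

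H3K9me2 is a mark of silent chromatin and covers transposons and other repeats in plants. In *A. thaliana* the chromomethylases CMT3 and CMT2 bind H3K9me2 and methylate cytosines outside CG sites, and the histone methyltransferase KYP and its relatives bind that methylated DNA and methylate H3K9 in turn. A loop of this kind can carry the mark along a chromosome, and in *A. thaliana* the demethylase IBM1 removes it from genes. *E. salsugineum* has no *CMT3* of its own. Spreading of the mark from a block into its surroundings would be seen as a slower fall of H3K9me2 with distance from the block, or as a block edge that lies farther out. The flanks were therefore compared between wild type and the AtCMT3 plants in both respects.

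Depth was between 4494275 reads (wild type) and 18722786 reads (AtCMT3-L2T5), with 10880290 reads of input. By the read names, wild type shared sequencing run 1 with 7458644 of the 15369069 reads of AtCMT3-L1T3, whose other reads came from run 4. AtCMT3-L2T3 was alone in run 2, and AtCMT3-L1T5, AtCMT3-L2T5 and the input shared run 3. Run and plant therefore cannot be told apart, other than for AtCMT3-L1T3. Levels below are reads per kb, scaled to 1000000 reads in each library, and intervals are 95% intervals for counting error only.

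Domains were between 5 and 30 kb long with a median of 6 kb. Of the 742 domains, 631 were 5 to 9 kb long (290 of them exactly 5 kb), 105 were 10 to 14 kb and 6 were at least 15 kb. None of their 1484 sides ended at a scaffold end. Of the flank windows, 1461 were the first outside a domain, 1122 the second and 1103 the third. Another 347 of the 1484 second positions and 364 of the third were enriched themselves and are not flanks, and 23 first windows were shared by the sides of neighbouring domains. The 3686 windows missed the call in different ways: 2615 had enough reads but were under 4-fold, 41 reached 4-fold with under 10 reads, and 1030 missed both limits. Among them, 67 held no wild-type H3K9me2 read and 61 held no input read. Under 10 input reads were found in 5.29% of the flank windows, close to the 5.07% of the background windows described next, and in 9.35% of the domain windows.

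In wild type the mark fell steeply and over a short distance. The level was 19.8 in the innermost of the 3 windows inside the edge and 16.7 (16.6 to 16.8) in the outermost window of the domain. It was 7.12 (7.05 to 7.18) in the first window outside, 4.54 (4.48 to 4.59) in the second and 4.11 (4.06 to 4.17) in the third. The edge itself thus carried the steepest step, 2.34-fold from the outermost domain window to the first flank window, followed by 1.57-fold and 1.102-fold. Between the third and the fourth window outside the level changed only 1.01-fold. These wild-type values follow in part from the rule, which used the same reads to place the edges, and are a description.

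The flanks did not reach the level of chromatin far from any enriched window. Background windows, 115832 windows more than 10 kb from every enriched window, had a wild-type level of 2.11. The third flank window was 1.95-fold above that, and at 11 to 20 kb outside the same domains the level was still 3.70. Input went the other way: it was 2.17 in the outermost domain window, 3.75, 4.18 and 4.199 in the flank windows in order of distance, and 4.52 in the background. Relative to input, the wild-type level was therefore 7.67-fold at the outermost domain window, 1.90-fold, 1.09-fold and 0.98-fold in the flank windows in order, and 0.467-fold in the background. The part of the difference in input between these windows was not tested.

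**Figure D1:**
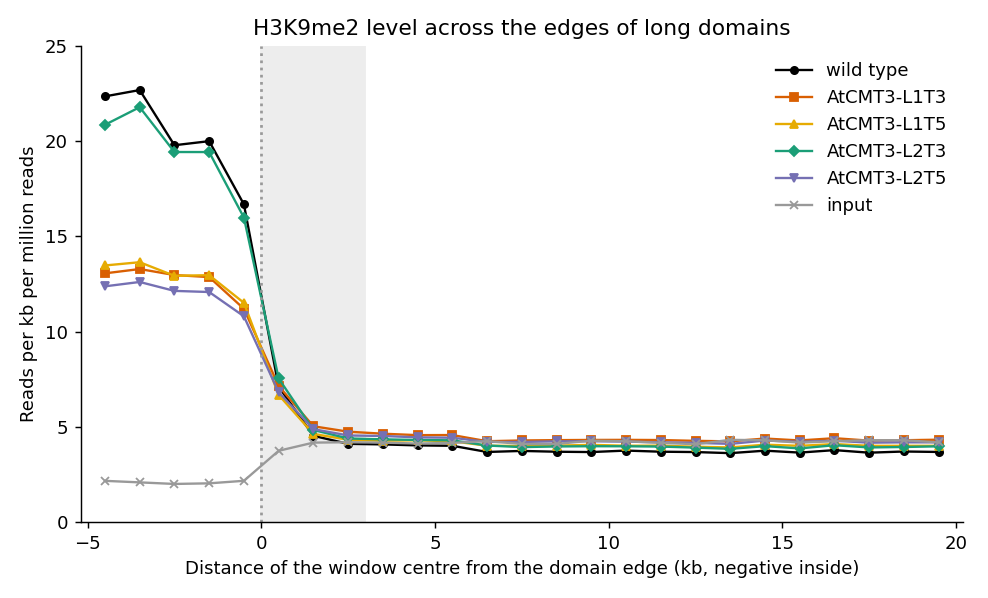
H3K9me2 level (reads per kb per 1000000 reads) by distance of the 1000 bp window from the edge of long domains in kb, for 5 H3K9me2 libraries and input, with windows inside the domain left of the dotted line and the 3 flank windows shaded. The libraries fall from between 10.8 and 16.7 in the outermost domain window to between 6.68 and 7.55 in the first flank window and run close to each other farther out, while input rises from 2.17 to 3.75.

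The first flank window of the AtCMT3 plants was close to that of wild type in absolute level. It was 7.15 in AtCMT3-L1T3 and 6.68 in AtCMT3-L1T5, and 7.55 in AtCMT3-L2T3 and 6.82 in AtCMT3-L2T5, or 1.00, 0.939, 1.06 and 0.959 times wild type. The counting intervals of these ratios were 0.994 to 1.02, 0.929 to 0.949, 1.05 to 1.07 and 0.949 to 0.968. The wild-type reads in these windows are held down by the rule, which kept only windows under the limit. With windows chosen by one part of the wild-type reads, drawn at random, and wild type measured in the other part, the level in the choosing part was 0.952 times that in the other part, and the ratios of the plants were 0.972, 0.915, 1.03 and 0.931. With the parts exchanged they were 0.956, 0.898, 1.02 and 0.914.

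In mean level, all AtCMT3 plants were above wild type in the second and the third flank window. The second window was at 5.04 in AtCMT3-L1T3 and 4.63 in AtCMT3-L1T5, and 4.84 in AtCMT3-L2T3 and 4.89 in AtCMT3-L2T5, against 4.54 in wild type. The third was at 4.75, 4.33, 4.395 and 4.55 in the same order, against 4.11. As ratios to wild type the windows in the third position were 1.16 (1.14 to 1.17), 1.05 (1.04 to 1.07), 1.07 (1.05 to 1.09) and 1.11 (1.09 to 1.12). Measured in reads that did not choose the windows, wild type was still below each plant, with ratios at the third window of 1.15, 1.05, 1.06 and 1.1002, and of 1.14, 1.04, 1.07 and 1.09 with the parts exchanged. At the second window the lowest ratio was then 1.01, in AtCMT3-L1T5. The AtCMT3 plants were about as far above wild type at 11 to 20 kb outside the domains, with ratios of 1.17, 1.08, 1.07 and 1.14. Out to 20 kb the ratio to wild type thus did not decline with distance from the domain in any plant: in AtCMT3-L1T3, AtCMT3-L1T5 and AtCMT3-L2T5 it was lowest in the window next to the domain, and in AtCMT3-L2T3 it lay between 1.06 and 1.07 at all 3 positions and at 11 to 20 kb. In the background, farther than 10 kb from every enriched window, the ratios were 1.02, 1.22, 0.860 and 1.16. AtCMT3-L1T3 and AtCMT3-L2T3 were thus lower there than in the third flank window. The median of the third flank window was 2.84 in AtCMT3-L2T3, below the 2.89 of wild type, and above wild type in the other plants.

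Inside the domains the plants differed far more than in the flanks. The domain level was 19.3 in wild type and 18.7 in AtCMT3-L2T3, but only 12.6 in AtCMT3-L1T5, 12.4 in AtCMT3-L1T3 and 11.8 in AtCMT3-L2T5. The domain windows were chosen for a high wild-type level, so a lower level in other libraries is in part given by the rule. Over all flank windows the level was 5.43 in wild type and 5.79, 5.35, 5.78 and 5.55 in the AtCMT3 plants in the order above, which is 1.07, 0.986, 1.06 and 1.02 times wild type.

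**Figure D2:**
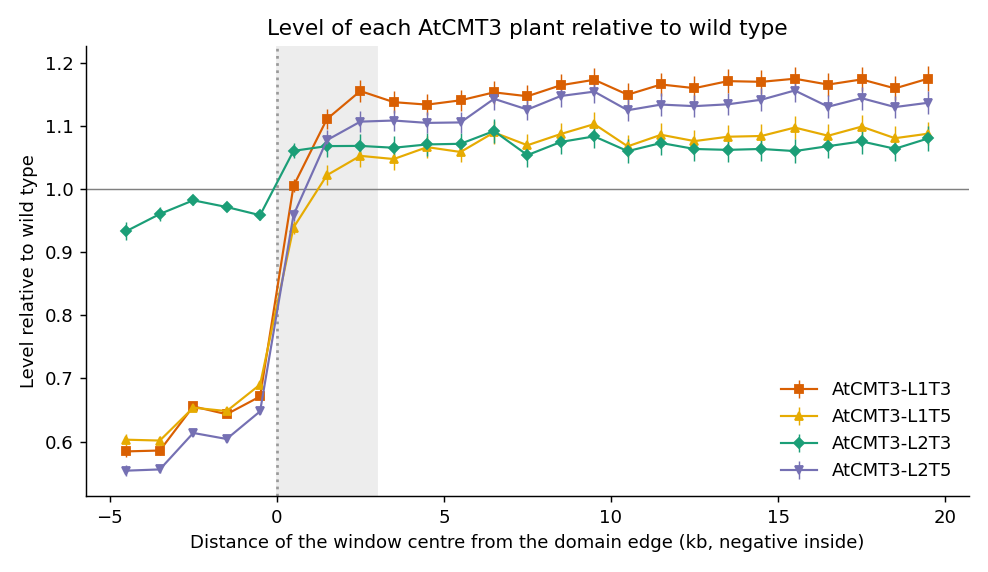
Level in each AtCMT3 plant divided by the wild-type level (y axis) by distance of the window from the domain edge in kb (x axis), with bars for the 95% counting interval and the 3 flank windows shaded. AtCMT3-L1T3, AtCMT3-L1T5 and AtCMT3-L2T5 rise from between 0.648 and 0.690 in the outermost domain window to between 1.05 and 1.16 in the third flank window, and AtCMT3-L2T3 stays between 0.933 and 1.09 at the positions shown.

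As a share of the domain level of the same library, the flanks were higher in every AtCMT3 plant than in wild type. The first flank window was at 36.8% of the domain level in wild type, 40.4% in AtCMT3-L2T3, 53.1% in AtCMT3-L1T5, 57.6% in AtCMT3-L1T3 and 58.0% in AtCMT3-L2T5. The step from the outermost domain window to the first flank window was accordingly smaller, at 1.57-fold in AtCMT3-L1T3 and 1.72-fold in AtCMT3-L1T5, and 2.12-fold in AtCMT3-L2T3 and 1.58-fold in AtCMT3-L2T5 against 2.34-fold in wild type. From the first to the second flank window the fall was 1.42-, 1.44-, 1.56- and 1.40-fold in the same order, against 1.57-fold. In AtCMT3-L1T5 and AtCMT3-L2T5 the first flank window was itself below wild type in level. Their higher shares therefore come from the lower domain level. In AtCMT3-L1T3 that window was close to wild type, and in AtCMT3-L2T3, where it was above, both levels enter.

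A measure that takes out the background was computed as the fold over input of the flanks minus that of the background, divided by the same difference for the domains. This relative flank level was 10.03% in wild type, 17.6% in AtCMT3-L1T3 and 13.9% in AtCMT3-L1T5, and 12.1% in AtCMT3-L2T3 and 16.5% in AtCMT3-L2T5. Relative to wild type it was 1.75 times (1.73 to 1.77) in AtCMT3-L1T3 and 1.39 times (1.37 to 1.41) in AtCMT3-L1T5. It was 1.21 times (1.19 to 1.22) in AtCMT3-L2T3 and 1.64 times (1.62 to 1.66) in AtCMT3-L2T5. The fold over input of the domains was 9.29 in wild type and 5.98, 6.06, 8.98 and 5.65 in the plants in this order. That of the flanks was 1.35 and 1.44, 1.33, 1.44 and 1.38, and that of the background 0.467 and 0.477, 0.568, 0.402 and 0.542. In AtCMT3-L1T5 and AtCMT3-L2T5 the flank fold minus the background fold was smaller than in wild type. Their ratios above wild type therefore come from the smaller domain difference. In AtCMT3-L1T3 and AtCMT3-L2T3 the flank difference was larger than in wild type and the domain difference smaller, and both enter. With this background the ratio grew with distance: from the first flank window to the third it was 1.61, 1.89 and 2.05 in AtCMT3-L1T3, and 1.54, 1.75 and 1.83 in AtCMT3-L2T5. In AtCMT3-L1T5 it was 1.36, 1.41 and 1.45, and in AtCMT3-L2T3 1.16, 1.26 and 1.29. The growth depended on the background: against windows at 11 to 20 kb outside the same domains the ratio was 1.34, 1.26 and 1.30 in AtCMT3-L1T5 and 1.103, 1.12 and 1.13 in AtCMT3-L2T3. It was 1.46, 1.51 and 1.56 in AtCMT3-L2T5 and 1.47, 1.50 and 1.81 in AtCMT3-L1T3, and only in AtCMT3-L1T3 did the counting intervals of the first and the third window not overlap. The plant with the highest *AtCMT3* level, AtCMT3-L2T3, had the lowest ratio of the relative flank level. It also had the domain fold nearest to wild type and was alone in its sequencing run. These cannot be told apart with 1 library per plant.

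The ratios were somewhat lower, but above wild type in each plant, when the choice of windows and the wild-type measurement used different reads. With domains and flanks chosen in a random part of the wild-type reads (2247844 reads) and wild type measured in the remaining reads, the ratios were 1.71, 1.36, 1.17 and 1.60 in the order AtCMT3-L1T3 and AtCMT3-L1T5, then AtCMT3-L2T3 and AtCMT3-L2T5. With the parts exchanged they were 1.68, 1.33, 1.16 and 1.58. Both parts come from 1 wild-type library, so the split takes out only counting error in the choice. With domains called in the measured plant itself the ratios were 1.27, 1.19, 1.15 and 1.31 in the same order. Within sequencing run 1, which wild type shared with a part of AtCMT3-L1T3, the ratio of that plant was 1.76. With the windows at 11 to 20 kb outside the same domains as the background in place of distant windows, the ratios were 1.50, 1.33, 1.11 and 1.47.

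A finer profile in bins of 100 bp was made over the 986 sides with no enriched window among the 3 windows outside. The step of a library is here the difference between its level 1 to 2 kb inside and its level 2 to 3 kb outside, which was 20.7 and 3.77 in wild type and 13.1 and 4.39 in AtCMT3-L1T3. The middle of the step lay 83.0 bp inside the window edge in wild type, 58.3 bp inside in AtCMT3-L1T3 and 106 bp inside in AtCMT3-L2T3. It lay 11.3 bp outside in AtCMT3-L1T5 and 7.77 bp outside in AtCMT3-L2T5. The middle of the step thus differed by under 1 window of 1000 bp between all libraries, and in AtCMT3-L2T3 it lay farther inside than in wild type.

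As a percent of its own step, the tail reached farther out in AtCMT3-L1T3, AtCMT3-L1T5 and AtCMT3-L2T5 than in wild type. The step itself was smaller in these plants, from 13.1 to 4.39, 13.4 to 4.06 and 12.4 to 4.26, against 20.7 to 3.77. In level, they were at 7.85, 8.00 and 7.75 at 0 to 200 bp outside, against 9.16 in wild type. At 800 to 1000 bp they were at 5.11, 4.80 and 5.05, against 4.56. Their excess there over their own level 2 to 3 kb outside was not above that of wild type. The distance at which 10% of the step remained was 614 bp in wild type, 684 bp in AtCMT3-L2T3, 811 bp in AtCMT3-L1T5, 822 bp in AtCMT3-L1T3 and 891 bp in AtCMT3-L2T5. These edges were placed by the same wild-type reads. With sides chosen in the first part of the wild-type reads (966 sides), the distance was 611 bp in the other part of the wild-type reads, 681 bp in AtCMT3-L2T3, 802 bp in AtCMT3-L1T3, 822 bp in AtCMT3-L1T5 and 857 bp in AtCMT3-L2T5. With the parts exchanged (901 sides), wild type was at 651 bp and AtCMT3-L2T3 at 661 bp, while the part that chose the sides was at 569 bp, and the others lay between 795 and 888 bp. At 0 to 200 bp outside the edge, 31.9% of the step remained in wild type, 32.3% in AtCMT3-L2T3, and between 39.5% and 43.0% in the other plants. At 800 to 1000 bp it was 4.71% in wild type, 5.13% in AtCMT3-L2T3, 7.88% in AtCMT3-L1T5, 8.19% in AtCMT3-L1T3 and 9.76% in AtCMT3-L2T5. At 1800 to 2000 bp under 1% remained in every library, between 0.155% and 0.646%. The level 2 to 3 kb outside is the base of this scale in each library, so small values next to it are in part given by the scaling.

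**Figure D3:**
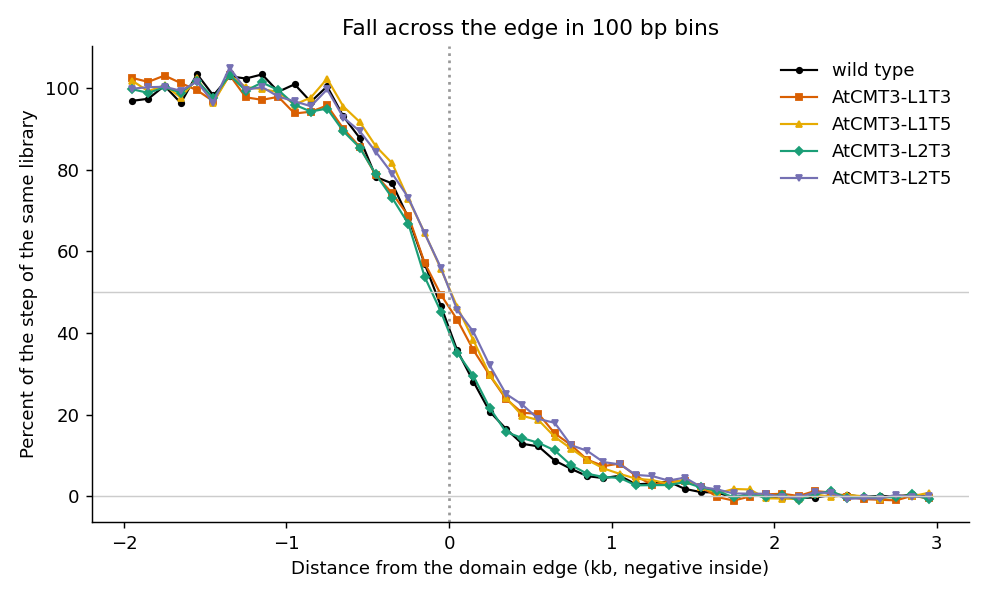
Percent of the step of the same library that remains (y axis) by distance from the domain edge in kb (x axis, negative inside), in 100 bp bins over 986 domain sides, for wild type and the 4 AtCMT3 plants. Wild type and AtCMT3-L2T3 run together at 31.9% and 32.3% just outside the edge. The other plants, whose step is smaller, run above them at 39.5% to 43.0%. All lines meet by 2 kb, which is in part given by the scaling, since the level 2 to 3 kb outside is the base in each library.

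Some flank windows were themselves enriched in an AtCMT3 plant. For this count each library was thinned once to the 4494275 reads of wild type, since the limit of 10 reads depends on depth. Enriched were 253 flank windows (6.86%) in AtCMT3-L1T3 and 99 (2.69%) in AtCMT3-L1T5, and 284 (7.70%) in AtCMT3-L2T3 and 153 (4.15%) in AtCMT3-L2T5. Among all 215504 windows not enriched in wild type, the share was 3.21% in AtCMT3-L1T3 and 1.49% in AtCMT3-L1T5, and 3.48% in AtCMT3-L2T3 and 2.14% in AtCMT3-L2T5. Enrichment became rarer from the first to the second flank window, with a share that went from 8.15% to 5.26% in AtCMT3-L1T3 and from 10.5% to 5.70% in AtCMT3-L2T3, and was 6.80% and 5.98% in the third. In all 4 plants together 42 flank windows were enriched (1.14%, against 0.442% of all windows not enriched in wild type), and 433 (11.7%) were enriched in at least 1 plant, against 5.75% of all windows not enriched in wild type.

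Wild-type reads gave a similar share by themselves. With flanks chosen in the first part of the wild-type reads, 229 of 3615 flank windows (6.33%) were enriched in the other part, with limits of 5 reads and 4-fold, against 2.21% of all windows not enriched in the first part. In the same windows at the same depth, 7.47% were enriched in AtCMT3-L1T3 and 4.18% in AtCMT3-L1T5, and 8.66% in AtCMT3-L2T3 and 5.09% in AtCMT3-L2T5, against 3.75%, 2.04%, 3.96% and 2.7% of all windows not enriched. With the parts exchanged, 6.65% of the flank windows were enriched in the other wild-type part and 6.91%, 4.29%, 8.88% and 4.96% in the plants. Among all windows not enriched, the shares were 2.19% and 3.73%, 2.07%, 4% and 2.73%. AtCMT3-L1T3 and AtCMT3-L2T3 were thus above the other wild-type part and both T5 plants below it. Both wild-type parts come from 1 library, so they differ by counting error only and hold no variation between plants or runs. The flanks of shorter runs were 36425 windows beside runs of 1 to 4 enriched windows, counted only more than 20 kb from any long domain. At the depth of wild type, 9.34% of them were enriched in AtCMT3-L1T3 and 4.44% in AtCMT3-L1T5, and 10.2% in AtCMT3-L2T3 and 6.46% in AtCMT3-L2T5. This was a higher share than in the flanks of long domains in each plant, and the part of their location in it was not tested.

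The 5 flank windows with the most reads among those enriched in all 4 plants were close to the limit in wild type already, between 3.10-fold and 3.94-fold over input. In scaffold 11 (11251001 to 11252000, next to a domain of 5 kb) wild type had 52 reads, and at equal depth AtCMT3-L1T3 had 81, AtCMT3-L1T5 73, AtCMT3-L2T3 82 and AtCMT3-L2T5 73. In scaffold 8 (9967001 to 9968000) wild type had 56 reads and the plants 73, 65, 74 and 76 in the same order. The widest difference was in scaffold 3 (10633001 to 10634000, the third window outside a domain of 5 kb), with 41 reads in wild type and 62, 83, 70 and 55 in the plants. In scaffold 15 the window from 817001 to 818000 had 54 reads in wild type and 71, 65, 62 and 63 in the plants, and that from 3101001 to 3102000 had 57 reads and 64, 58, 72 and 62. These windows were chosen for being high in the plants, so that the plants lie above wild type is given by the choice.

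Domain edges moved inward more often than outward in 3 of the plants. At the depth of wild type, the touching enriched run reached farther out than the wild-type edge at 106 of 1484 sides (7.14%) in AtCMT3-L1T3 and 47 (3.17%) in AtCMT3-L1T5, and 151 (10.2%) in AtCMT3-L2T3 and 69 (4.65%) in AtCMT3-L2T5. It fell short of the edge at 369 sides (24.9%) in AtCMT3-L1T3 and 364 (24.5%) in AtCMT3-L1T5, and 137 (9.23%) in AtCMT3-L2T3 and 390 (26.3%) in AtCMT3-L2T5. Outward movement had a median of 1 kb in each plant, and the farthest was 11 kb, in AtCMT3-L2T3. With 1460 sides placed by the first part of the wild-type reads, the other part of the wild-type reads gave 9.66% outward and 10.5% inward, and its farthest outward movement was 25 kb, against 7, 5, 9 and 6 kb in the plants on the same sides. AtCMT3-L2T3 gave 11.03% outward and 11.1% inward on these sides. AtCMT3-L1T3, AtCMT3-L1T5 and AtCMT3-L2T5 gave 8.29%, 5.14% and 5.27% outward, all below the other wild-type part, and 29.9%, 25.8% and 29.2% inward. The wild-type parts come from the same library and differ by counting error only. The lower domain levels of these 3 plants move with their inward count, and their part in it was not tested.

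**Figure D4:**
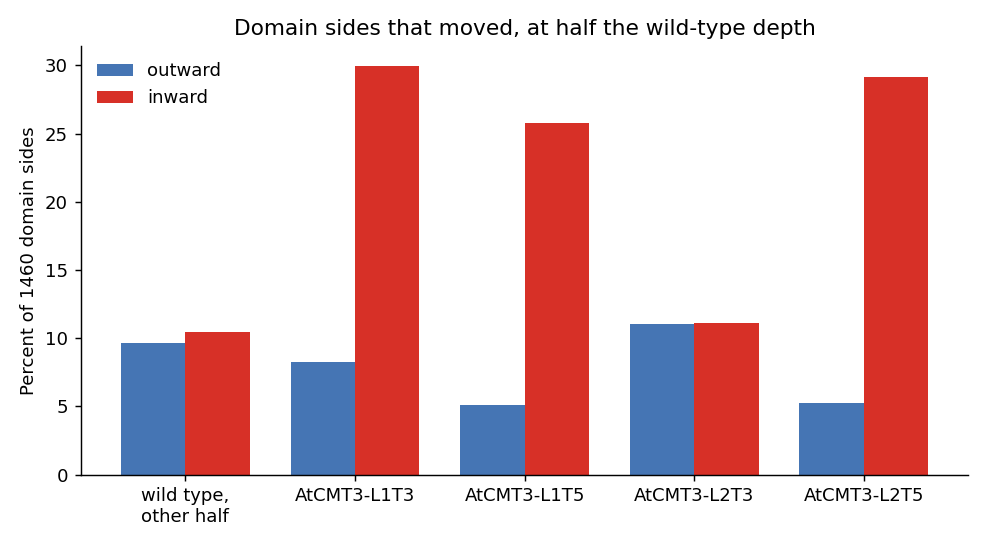
Percent of 1460 domain sides (y axis) at which the enriched run reached farther out (blue) or fell short (red) of the edge placed by the first part of the wild-type reads, in the other part of the wild-type reads and in the 4 AtCMT3 plants at the same depth (x axis). Outward movement lies between 5.14% and 11.03% and is highest in AtCMT3-L2T3. Inward movement is 10.5% in the other part of the wild-type reads, 11.1% in AtCMT3-L2T3 and between 25.8% and 29.9% in the other plants.

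Window by window, the flanks lay on either side of wild type. At equal depth 1966 flank windows (53.3%) had more reads than wild type in AtCMT3-L1T3 and 1838 (49.9%) in AtCMT3-L1T5, and 1727 (46.9%) in AtCMT3-L2T3 and 1992 (54.0%) in AtCMT3-L2T5. Among all windows not enriched in wild type, more reads than in wild type were found in 45.5%, 58.3%, 34.6% and 56.2%. More reads in all 4 plants were found in 728 flank windows (19.8%), against 18.2% of all windows not enriched, and fewer in all 4 plants in 498 (13.5%), against 11.3% of all windows not enriched. All plants share the wild-type library in this count. The share with more reads grew with distance in 3 plants, from 48.0% in the first to 58.5% in the third window in AtCMT3-L1T3, from 43.4% to 54.8% in AtCMT3-L1T5 and from 47.0% to 59.9% in AtCMT3-L2T5, and went from 50.2% to 42.7% in AtCMT3-L2T3.

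The flank windows differed widely among themselves, and the same windows were high in each library. The median level of the first flank window was 6.68 in wild type with 10% of windows at or under 1.56 and 10% at or above 13.1. The median was 3.34 in the second and 2.89 in the third. The highest flank window in wild type had a level of 44.3 and a correspondingly high input, which kept it under 4-fold. Over the 3686 flank windows the rank correlation (Spearman) of the level with wild type was between 0.901 and 0.923 in the AtCMT3 plants, a description over windows that share their sequence and neighbourhood, and that of wild type with input was 0.116. In the domain windows the correlation with wild type was 0.908 in AtCMT3-L2T3 and lower in the others, between 0.721 and 0.838.

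The comparison with wild type depended on how marked a window was already. In the 1497 flank windows under 1-fold over input in wild type, the level was 1.98 in wild type and 1.16, 1.32, 0.951 and 1.28 times that in AtCMT3-L1T3 and AtCMT3-L1T5, then AtCMT3-L2T3 and AtCMT3-L2T5. In the 843 windows of 1- to 2-fold the level was 5.87 in wild type and all plants were above it, by 1.19, 1.04, 1.12 and 1.12 times. In the 718 windows of 2- to 3-fold the ratios were 1.04, 0.913, 1.09 and 0.959, and in the 587 windows of 3- to 4-fold 0.949, 0.854, 1.05 and 0.880. The windows were sorted by their own wild-type reads, so low classes hold windows that were low by counting error in wild type, and these ratios are a description. At the limit of the rule, the 277 flank windows of 3.5- to 4-fold had a wild-type level of 11.03, and the 143 outermost domain windows of 4- to 4.5-fold one of 12.3.

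Flanks with a further enriched window nearby carried more of the mark. The 2385 flank windows on sides with no other enriched window within 6 kb had a level of 4.47 in wild type, 4.75 in AtCMT3-L1T3 and 4.59 in AtCMT3-L1T5, and 4.56 in AtCMT3-L2T3 and 4.71 in AtCMT3-L2T5. Levels in the other 1301 windows were at 7.21 in wild type and at 7.69, 6.75, 8.02 and 7.11 in the plants in the same order. The first windows of isolated sides were close to wild type in each plant, with ratios of 0.980, 0.965, 1.01 and 0.967. Flanks on the left side of domains were at 5.56 and on the right side at 5.31 in wild type.

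Flank levels differed with domain length in no single direction. The first flank window was at 7.21 in wild type beside the domains of 5 to 9 kb and at 6.48 beside those of 10 to 14 kb, which is 40.4% and 27.0% of the level of the respective domains. In AtCMT3-L2T3 the shares were 43.9% and 29.9%. In AtCMT3-L1T3, AtCMT3-L1T5 and AtCMT3-L2T5 they were 59.2%, 55.4% and 59.9% beside the shorter domains and 49.8%, 44.4% and 49.7% beside the longer ones. Beside the 6 domains of at least 15 kb, with only 12 first windows, it was at 8.14 (7.40 to 8.94) in wild type, 42.6% of their level, and at 8.70, 7.54, 9.13 and 8.36 in the plants. Beside runs of exactly 4 enriched windows, just too short to be a domain, the first outside window (855 windows) was at 6.73 in wild type and at 7.06, 6.57, 7.26 and 6.74 in the plants, close to the values beside the domains of 5 kb, 6.90 in wild type and 7.10, 6.58, 7.39 and 6.71.

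The flanks of runs of 1 to 4 windows differed from those of long domains in the comparison with wild type. Their first window was at 6.21 in wild type, 7.16 in AtCMT3-L1T3 and 6.21 in AtCMT3-L1T5, and 7.17 in AtCMT3-L2T3 and 6.64 in AtCMT3-L2T5. As ratios to wild type these are 1.15, 1.000, 1.15 and 1.07, each above the ratio of the first window beside long domains in the same plant. The wild-type reads chose both sets of windows, and the part of that choice in the difference was not tested. The share of the first window was taken of the level of all 15668 windows in such runs, at any distance from a long domain. It was 53.0% in wild type and 72.5%, 68.4%, 61.5% and 72.0% in the plants, or 1.37, 1.29, 1.16 and 1.36 times wild type. Beside long domains the first window as a share of the domain level was 1.56, 1.44, 1.097 and 1.58 times that of wild type. These shares rest on unlike sets, since the flanks of short runs leave out windows within 20 kb of a long domain but the runs do not.

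On most scaffolds the flanks were above wild type as a share of the domain level, but less often in the level itself. Of the 22 scaffolds with at least 20 flank windows, the flank level as a share of the domain level was above wild type in all 22 in AtCMT3-L1T3, AtCMT3-L1T5 and AtCMT3-L2T5, and in 19 in AtCMT3-L2T3. The level itself was above wild type in 17, 9, 17 and 13 scaffolds in the order of the plants above (AtCMT3-L1T3 and AtCMT3-L1T5, then AtCMT3-L2T3 and AtCMT3-L2T5). Its ratio to wild type ranged over the scaffolds from 0.809 to 1.34, 0.942 to 1.37, 0.695 to 1.42 and 0.888 to 1.25. Scaffold 3 held the most flank windows, 333 (9.03%), and without it the ratios of the relative flank level were 1.75, 1.39, 1.21 and 1.64. Scaffold 13 stood apart with a share of 9.18% in wild type over 36 flank windows, against a median of 28.8% over the scaffolds.

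**Figure D5:**
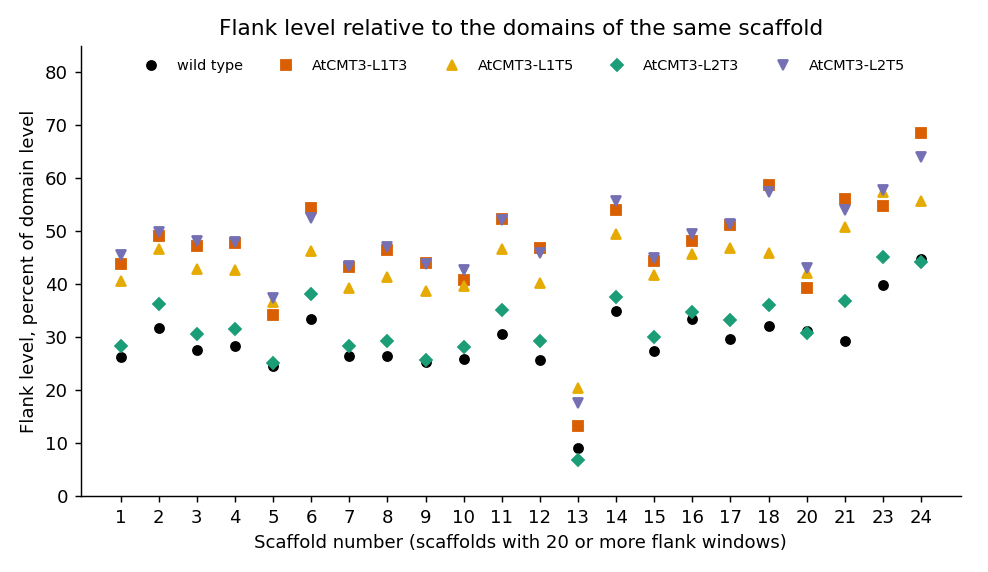
Flank level as a percent of the level of the domains on the same scaffold (y axis) for the 22 scaffolds with at least 20 flank windows (x axis, scaffold number), in wild type and the 4 AtCMT3 plants. The medians over scaffolds are 28.8% in wild type, 31.1% in AtCMT3-L2T3, 42.7% in AtCMT3-L1T5, 47.5% in AtCMT3-L1T3 and 48.0% in AtCMT3-L2T5, and scaffold 13 is lowest in each.

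Single domains show how unlike the sides can be. Of the 30 positions within 3 kb of the 5 longest domains, 21 were flank windows and the rest were enriched. Positions are those of the *E. salsugineum* v1.0 reference genome, and plant reads are given at the depth of wild type. The longest domain (scaffold 1, 17254001 to 17284000, 30 kb) had a level of 17.8 in wild type and of 9.93, 11.7, 18.1 and 10.6 in AtCMT3-L1T3 and AtCMT3-L1T5, then AtCMT3-L2T3 and AtCMT3-L2T5. Its first window to the left held 20 reads in wild type and 27, 21, 22 and 38 in the plants, and its first window to the right 55 reads and 40, 50, 67 and 49. On either side the next windows were enriched again, so this block is bounded by single windows.

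The next longest domain (scaffold 4, 10129001 to 10146000, 17 kb) was isolated on both sides. To the left wild type had 44, 7 and 8 reads with growing distance, and to the right 16, 8 and 13. In the first window to the left the plants had 25, 36, 25 and 27 reads, all fewer than wild type, and to the right 15, 26, 15 and 14.

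The remaining 3 of the longest domains span 15 kb each. Beside the domain in scaffold 7 (5707001 to 5722000) the first window to the left held 26 reads in wild type and 34, 22, 39 and 30 in the plants, and that to the right 49 reads and 41, 38, 47 and 50. Beside the domain in scaffold 4 (11006001 to 11021000) the left window held 43 reads in wild type and 85, 41, 59 and 52 in the plants, and the right window 58 reads and 46, 48, 66 and 65. The 85 reads of AtCMT3-L1T3 were the largest rise over wild type in a first window beside these 5 domains. Beside the domain in scaffold 11 (5641001 to 5656000) the left window held 10 reads in wild type and 13, 14, 3 and 12 in the plants, and the right window 64 reads and 43, 47, 68 and 46.

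The sharpest edges fell over the same pair of windows in each plant. Of 510 isolated sides with at least 20 input reads in both windows, the 3 with the fewest wild-type reads in the first flank window relative to the outermost domain window were taken. In scaffold 14 wild type fell from 76 reads (3076001 to 3077000) to 1 read in the next window, and the plants from 65 to 6, 69 to 6, 73 to 8 and 54 to 6. In scaffold 7 wild type fell from 143 reads (516001 to 517000) to 2, and the plants from 92 to 9, 82 to 7, 114 to 2 and 89 to 5. In scaffold 4 wild type fell from 101 reads (5990001 to 5991000) to 2, and the plants from 61 to 11, 77 to 9, 116 to 6 and 83 to 9. In these windows the plants had at least as many reads as wild type outside the edge, which the choice of the lowest wild-type windows favours.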

How the data were processed

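For ChIP-seq the authors used Trimmomatic for trimming and Bowtie for alignment against genome version v1.0, dropped reads with several alignments and, by SAMtools, duplicates, and deposited a line for each read. It holds the start and end of the read in other columns and a score of 255, the same in every line that the authors deposited and not used. For RNA-seq the authors deposited StringTie values named FPKM. From the sums, 5 of the 10 columns that the authors deposited hold TPM, so AtCMT3 was scaled to TPM in each.

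Reads were counted by midpoint with Python 3.11.15, numpy 2.4.6, pandas 2.3.3 and scipy 1.17.1, and plotted with matplotlib 3.10.9. Intervals are exact Poisson intervals, and intervals of ratios use the delta method. Enrichment used an input floor of 1 read. Thinning and the split of the wild-type reads used 1 random draw each. The computation was tested on simulated data. At the enrichment of the real domains it recovered every domain and the ratios of the relative flank level, but not every edge exactly. A first criterion on the share of exact edges was not met and was replaced by recovery of the ratios and the number of domains. For simulated domains close to the 4-fold limit misplaced edges were common and the ratios shifted. The simulated domains had uniform enrichment, even input and no shorter runs between them, unlike the data.

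The windows, comparisons and lists were chosen with earlier results of these data known. The regions named are both sides of the 5 longest domains, the 5 flank windows with the most reads among those enriched in all 4 plants, and the 3 sharpest isolated edges. Tried as alternatives were limits of 3-fold, of 6-fold and of 20 reads, domains of 3 or 10 windows, windows of 500 bp, reads shifted to the fragment centre, full depth, domains chosen in parts of the wild-type reads or in each plant, a nearer background, isolated sides, at least 10 input reads and all scaffolds or all but 1. A further 3 were added after the data were seen: the reads of AtCMT3-L1T3 from the shared run, the outermost domain windows as the domain level, and the 100 bp profile on sides chosen in parts of the wild-type reads. Genes and sequences of the flanks were not analysed here, nor were bisulfite and H3K9me1 libraries.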

Additional observations from a re-analysis of the deposited data

How the results depend on the processing

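The relative flank level was above wild type in each AtCMT3 plant under all 20 alternatives run for AtCMT3-L1T3 and all 19 run for the other plants, between 1.27 and 2.15, 1.15 and 1.59, 1.09 and 1.28, and 1.28 and 1.98 times wild type (AtCMT3-L1T3 and AtCMT3-L1T5, then AtCMT3-L2T3 and AtCMT3-L2T5, the order used throughout). The domain level as well as the flank level enters each of these ratios. With the main limits, the flank fold minus the background fold was smaller than in wild type in AtCMT3-L1T5 and AtCMT3-L2T5. The ratio was 1.28 in AtCMT3-L2T3 with 3-fold, and 1.56, 1.29, 1.09 and 1.496 with 6-fold over input. Domains of at least 3 windows gave 1.67 in AtCMT3-L1T3 and 1.58 in AtCMT3-L2T5, and of at least 10 windows 2.15, 1.59, 1.26 and 1.98. Windows of 500 bp gave 1.963, 1.504, 1.26 and 1.82. Choosing in the first part of the wild-type reads gave 1.71, 1.36, 1.17 and 1.60, and in the second part 1.68, 1.33, 1.16 and 1.58. Domains called in AtCMT3-L1T3 gave 1.27, 1.15, 1.09 and 1.28, in AtCMT3-L1T5 1.46, 1.19, 1.11 and 1.41, in AtCMT3-L2T3 1.63, 1.32, 1.15 and 1.55, and in AtCMT3-L2T5 1.37, 1.18, 1.095 and 1.31. The nearer background gave 1.50, 1.33, 1.11 and 1.47, and isolated sides 1.41, 1.18 and 1.67 in the last 3 plants. All scaffolds gave 1.79, 1.23 and 1.68 in AtCMT3-L1T3, AtCMT3-L2T3 and AtCMT3-L2T5, and the outermost domain windows 1.68, 1.32 and 1.55 in AtCMT3-L1T3, AtCMT3-L1T5 and AtCMT3-L2T5.

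The share of flank windows enriched at equal depth moved with the limit. It was 10.9%, 5.39% and 7.55% with 3-fold in AtCMT3-L1T3, AtCMT3-L1T5 and AtCMT3-L2T5, against 5.11%, 2.58% and 3.71% of all windows not enriched at that limit. With 6-fold it was 1.80%, 0.900%, 3.77% and 0.563%, against 1.11%, 0.518%, 1.54% and 0.630%, so that in AtCMT3-L2T5 it was not above the background there. In AtCMT3-L1T5 it was 1.48% beside domains of at least 10 windows, against 1.49% of all windows not enriched, and 4.18% and 4.29% with windows chosen in the first and second part of the wild-type reads, against 2.04% and 2.07%.

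The plain flank level, close to that of wild type, changed side. In AtCMT3-L1T3 it was 0.929 times wild type with 6-fold, and 0.935, 0.931 and 0.922 beside domains called in AtCMT3-L1T3, AtCMT3-L1T5 and AtCMT3-L2T5. In AtCMT3-L2T5 it was 0.895 with 6-fold, 0.991 with the second part of the wild-type reads, and 0.905, 0.904 and 0.886 beside those called domains. In AtCMT3-L1T5 it was 1.05 with 3-fold, 1.01 both with domains of at least 3 and of at least 10 windows, 1.00 with windows of 500 bp and 1.03 on isolated sides. In AtCMT3-L2T3 it was above wild type in all 17 alternatives. The counting interval included 1 in AtCMT3-L2T5 with the second part of the wild-type reads (0.981 to 1.001). In AtCMT3-L1T5 it did so with domains of at least 10 windows (0.994 to 1.03) and with windows of 500 bp (0.990 to 1.01). Flanks of domains called in a plant are held under the limit in the reads of that plant. The cause of the changes of side was not tested. No paired analysis was possible because each plant has 1 H3K9me2 library. At the depth of wild type a flank window held few reads, so single windows are less certain than sums over windows.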
